A study of Mus musculus with 6 samples.

Results

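The heat shock proteins and chaperones described here are the 10 genes Hspa8, Hsp90ab1, Hsp90aa1, Hspa1a, Hspa1b, Dnajb1, Hspa5, Hspa9, Hspd1 and Hspe1. These members were chosen by name from the 55401 gene rows of the count table, through the symbol paired with each Ensembl identifier. All 10 were found and all 10 passed the filter on low counts that left 9196 genes for testing. They were sorted by role into 2 constitutive cytosolic members (Hspa8 and Hsp90ab1), 4 inducible members (Hsp90aa1, Hspa1a, Hspa1b and Dnajb1), 1 member of the endoplasmic reticulum (Hspa5) and 3 mitochondrial members (Hspa9, Hspd1 and Hspe1).

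The counts came from 6 libraries, set A with A1 to A3 and set B with B1 to B3. The protocol names Smart-seq2 on pooled RNA, while the library descriptions name 10x Genomics. The source is blood per the labels and the extraction protocol, and ear skin per the design text. The cells came from WT mice and were sorted as live, CD45+, lineage-negative, CD49b+ cells with FcεRIα or IgE on their surface, a gate for basophils. The model is an atopic dermatitis-like disease brought on by MC903, a vitamin D analogue, at 2 nmol per day in 10 µL of ethanol on both ears between day 0 and day 6, and its controls get the solvent only. Neither the set that received MC903 nor the age of the mice is stated in the labels, so each difference is given as set B against set A. No label ties the libraries of a set to separate animals, so the p-values reflect the spread among these 6 libraries alone, and that spread may be technical.

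The libraries held 46137963 to 63956911 counts, far more than the read yield that the protocol states. The label of the sort was checked against 10 basophil genes. Their summed level was 39.7 to 385 CPM (the count divided by the library's total, times 1000000) in A and 1449 to 3220 CPM in B. In A, 6 of the 10 stayed under 1 CPM in every library (Prss34, Fcer1a, Cpa3, Cd200r3, Itga2 and Il4), and Fcer1a, the IgE-binding receptor chain, was at 0 in A2 and A3. Gata2 and Hdc, by contrast, reached 116 and 267 CPM in A3. Neutrophil genes summed to 2254 to 9700 CPM in A and 12171 to 22803 CPM in B, and T cell genes to 696 to 936 CPM in A and 198 to 350 CPM in B. B cell genes were at 4528 to 6500 CPM in A and 5476 to 6625 CPM in B. Transcripts of other blood cells were thus present in all 6 libraries, and the part of cell makeup in the differences between sets was not tested. In such bulk libraries fewer cells of a type and less RNA per cell cannot be told apart.

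Chaperones bind unfolded or partly folded proteins and keep them from clumping. HSP70 proteins work in cycles of ATP binding with a J-domain partner such as Dnajb1, HSP90 proteins finish the folding of kinases and receptors, and the Hspd1 and Hspe1 products form the barrel and the lid of the mitochondrial chaperonin. Heat or damaged proteins free the transcription factor HSF1, which binds heat shock elements, repeats of the bases GAA and TTC, and switches on the inducible members. Unfolded protein in the endoplasmic reticulum acts instead through a separate response whose binding element stands before Hspa5. Inducible heat shock genes are also known to respond to tissue handling and cell sorting.

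Promoter letters were taken from RefSeq (build GRCm38.p6), which had windows for 6 of the 10 members (Hspa1a, Hspa1b, Dnajb1, Hspa5, Hspd1 and Hspe1) and none for Hspa8, Hsp90ab1, Hsp90aa1 and Hspa9. The first pair is shown because Hspa1a and Hspa1b are near-copies whose counts are read together below, and capitals mark the heat shock pair GAANNTTC. Both windows cover the 250 bases before the start of the gene on the minus strand, at chr17:34972157-34972406 for Hspa1a and chr17:34959239-34959488 for Hspa1b.
Hspa1a: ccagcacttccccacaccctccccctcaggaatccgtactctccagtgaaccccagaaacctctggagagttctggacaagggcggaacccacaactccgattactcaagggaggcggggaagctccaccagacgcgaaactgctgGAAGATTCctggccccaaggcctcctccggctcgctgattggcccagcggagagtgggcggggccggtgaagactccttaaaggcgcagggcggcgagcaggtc
Hspa1b: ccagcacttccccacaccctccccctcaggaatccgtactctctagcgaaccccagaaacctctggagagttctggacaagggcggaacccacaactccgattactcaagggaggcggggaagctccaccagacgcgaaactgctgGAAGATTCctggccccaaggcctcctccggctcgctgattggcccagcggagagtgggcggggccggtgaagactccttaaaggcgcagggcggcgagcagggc

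The windows differed at 3 positions counted from 1 at the 5′ end, C44T, T47C and T249G (the base of Hspa1a first). The pair GAANNTTC stood at -104 to -97 before the start in both. It reads the same on both strands and was found in 6.69% of the 32851 RefSeq windows of this length.

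The next stretches are shown because they carry the longest heat shock element and the endoplasmic reticulum element found among the members. Hspd1 and Hspe1 lie head to head, and 1 run of alternating TTC and GAA units (in capitals) lies upstream of both, at -89 to -72 before Hspe1. The stretch is chr1:55088053-55088082 on the plus strand, inside an Hspd1 exon of some GENCODE M21 transcripts. In the Hspa5 stretch, chr2:34772020-34772049 on the plus strand and inside an exon of an Hspa5 protein-coding transcript of GENCODE M21, capitals mark the endoplasmic reticulum stress element, the units CCAAT and CCACG with 9 bases between them, at -65 to -47.
Hspe1: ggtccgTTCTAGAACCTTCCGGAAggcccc
Hspa5: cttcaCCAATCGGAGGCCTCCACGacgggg

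Elements of 3 alternating GAA and TTC units, with 2 bases between neighbouring units, were searched on both strands and in either phase. They were found in 0.466% of windows, and among the members in those of Hspd1 and Hspe1. These 3-unit matches overlap each other and the tail-to-tail pair TTCNNGAA, which was in 7.17% of windows. The endoplasmic reticulum element was in 0.113% of windows, searched on both strands, and among the members in that of Hspa5. The windows of Dnajb1 held none of these motifs. A match is a description of the letters and not evidence of binding.

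The members together took 0.265% to 0.445% of a library's counts. Hspa8, the constitutive HSP70 of the cytosol, alone made 41.3% to 50.5% of that sum in each library. For a comparison between genes, CPM was divided by the merged exon length of GENCODE M21, an annotation that may differ from the authors'. On this scale of CPM per kilobase the order of mean levels over the 6 libraries began with Hspa8 (606 ± 150, SD, n = 6), Hsp90ab1 (239 ± 82.6) and Hspa5 (135 ± 39.9). Hspe1 (96.3 ± 33.8) and Hsp90aa1 (95.02 ± 15.7) followed, and then Dnajb1 (39.1 ± 20.5) and Hspd1 (33.3 ± 34.5). Hspa9 (5.76 ± 9.91), Hspa1a (3.87 ± 7.67) and Hspa1b (1.09 ± 1.56) came last. Neighbours in this order had ranges that did not overlap in 2 places, between Hspa8 and Hsp90ab1 and between Hsp90aa1 and Dnajb1. Hsp90ab1 stood above Hspa5 in 6 of 6 libraries although their ranges overlapped, while Hspe1 stood above Hsp90aa1 in 2 of 6 and Dnajb1 above Hspd1 in 3 of 6, so these pairs did not keep their order between libraries.

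**Figure D1:**
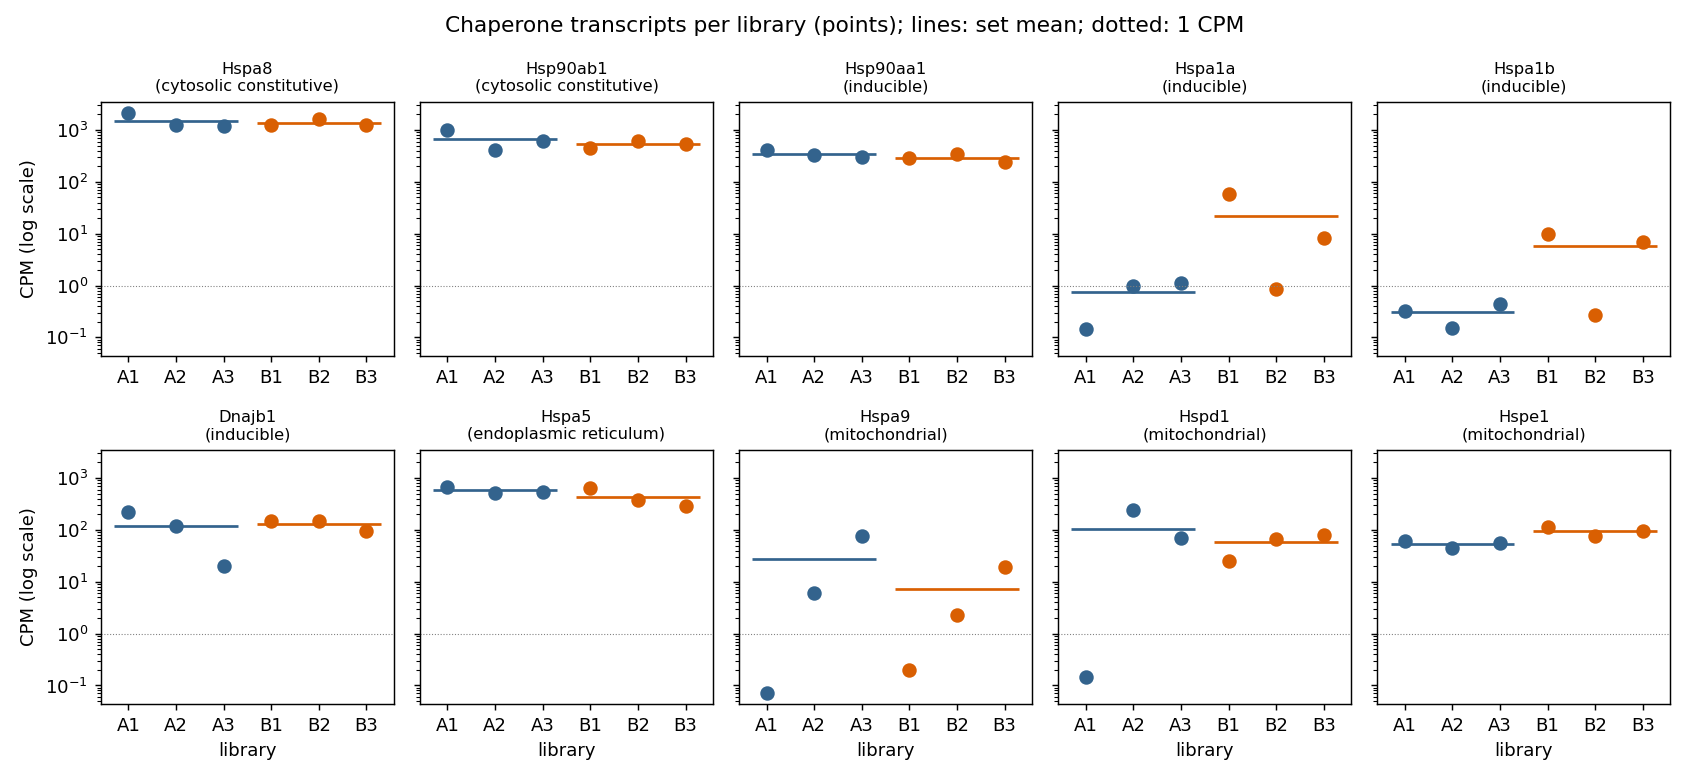
CPM of each chaperone gene (log axis) in each of the 6 libraries, with set A in blue, set B in orange, a horizontal line at each set's mean and a dotted line at 1 CPM. Hspa8, Hsp90ab1, Hsp90aa1 and Hspa5 lie within 2.44-fold across libraries, whereas Hspa1a, Hspa1b, Hspa9 and Hspd1 drop under 1 CPM in 1 to 4 libraries.

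Set B was compared with set A for all 9196 genes by edgeR's quasi-likelihood test, and p-values were adjusted over all of them (Benjamini-Hochberg). Of the 10 members 0 passed an adjusted p of 0.05, where 0.0217% of all genes tested did (2 genes, both higher in B). Without adjustment 1 member, Hspa1b, had a p under 0.05 by edgeR and was higher in B, where 6.36% of all genes tested had such a p in either direction, 5.05% with B higher and 1.32% with B lower. DESeq2 called the same member (6.47% of all genes were called, 5.34% higher and 1.13% lower), and limma-voom called 0 of the 10 (2.11% of all genes were called, 2.03% higher and 0.0761% lower). Hspa1a, Hspa1b, Hspa9 and Hspd1 fell short of the low-count filter in A and needed B libraries to pass it. In A, Hspa1b had 18, 8 and 20 counts. Its p and its call by DESeq2 thus depend on that entry and are given as description. The median fitted log2 difference of the members was -0.31, beside -0.06 over all genes tested. The members' median turned to 0.29 with limma-voom (0.87 over all genes) and to 0.07 without A1 (0.10 over all genes). On simulated counts for the same genes edgeR recovered 0% of 50 genes planted with a 4-fold difference and 26% at 32-fold, and 0 of the 8996 unchanged genes were called.

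The constitutive cytosolic pair was abundant in every library. Hspa8, which folds new proteins and strips clathrin coats, was at 2093, 1256 and 1188 CPM in A1, A2 and A3 and at 1229.9, 1663 and 1269.6 CPM in B1, B2 and B3. A1 was the highest library and the other 5 lay within the range from 1188 to 1663 CPM, so the sets overlapped. edgeR put the log2 difference at -0.25 (SE 0.30, adjusted p = 1.00), and it was 0.12 without A1.

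Hsp90ab1, the constitutive HSP90, was at 990.4, 407 and 616 CPM in A and at 454, 619.6 and 531 CPM in B. A1 again held the highest value, and A2 the lowest. The fitted log2 difference came to -0.46 (SE 0.39, adjusted p = 1.00 by edgeR), and it was 0.016 without A1. The ratio of Hspa8 to Hsp90ab1 CPM ran from 1.93 to 3.09 over the 6 libraries.

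Among the inducible members, the HSP90 gene and the HSP70 genes showed opposite extremes of spread. Hsp90aa1, the HSP90 that stress can raise, was at 406, 333 and 306 CPM in A and at 295, 340.4 and 247 CPM in B. The sets overlapped, and the coefficient of variation over the 6 libraries (SD divided by the mean) was 0.165, the smallest of the 10 members. The log2 difference was -0.36 (SE 0.29, adjusted p = 1.00 by edgeR). The ratio of Hsp90aa1 to Hsp90ab1 was 0.410 to 0.819 in A and 0.465 to 0.650 in B, so the constitutive form had more counts in 6 of 6 libraries.

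Hspa1a, the main inducible HSP70, was at 0.145, 0.984 and 1.11 CPM in A, and at 57.5, 0.846 and 8.29 CPM in B. Behind these levels stood 8, 52 and 51 counts in A, against 2860, 50 and 530 in B. B1 and B3 stood above all A libraries, while B2 lay among them, so the sets overlapped. edgeR put the log2 difference at 4.84 (SE 2.35, adjusted p = 1.00), and it was 2.57 without B1.

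Hspa1b, its near-copy on the same chromosome, had fewer counts than Hspa1a in 5 of 6 libraries and more in A1 (18 against 8). It was at 0.327, 0.151 and 0.433 CPM in A and at 10.1, 0.271 and 7.05 CPM in B, again with B1 and B3 high and B2 among the A libraries. The fitted log2 difference came to 4.16 (SE 1.71, unadjusted p = 0.0475, adjusted p = 0.762 by edgeR), and DESeq2 gave an adjusted p of 0.0431. The summed levels of basophil and neutrophil genes also lay above all A libraries in each B library (2087 and 12171 CPM in B2). Those of T cell, dendritic cell, platelet and erythroid genes lay below all A libraries in each B library. The dendritic cell sum was mostly H2-Aa and H2-Ab1 (2154 and 1644 of 3889 CPM in A1). Of its other genes, Siglech stayed at 0.726 to 1.80 CPM in all libraries. Itgax ran from 0.113 to 172 CPM in A and from 0.281 to 94.8 CPM in B. The part of cell makeup in the values of Hspa1a and Hspa1b was not tested.

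The split of counts between the copies depends on how reads were assigned. Of the 150-base windows of the Hspa1a transcript, 38.1% occur letter for letter in Hspa1b, with the counting program not given in the sources used here. Hspa1a held 30.8% of the pair's 26 counts in A1 (exact 95% binomial interval 14.3% to 51.8%) and 85.1% of 3360 in B1 (83.9% to 86.3%). In B3 it held 54.0% of 981 counts (50.8% to 57.2%). Such intervals take counts as independent and cover counting error at most. Summed over both copies the pair was at 0.472 to 1.54 CPM in A and at 67.5, 1.12 and 15.3 CPM in B, which leaves the same libraries high.

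Dnajb1, the J-domain partner that hands substrates to HSP70, was at 217, 119.95 and 20.4 CPM in A and at 148, 149.7 and 96.7 CPM in B. A3 was the low library and A1 the high one, and all 3 B values fell between them. The log2 difference was -0.03 (SE 0.89, adjusted p = 1.00 by edgeR) and took either sign when 1 library was left out (-0.54 without A3 and 0.81 without A1). Dnajb1 and Hspa1a did not share their high libraries: A1 was the highest library of Dnajb1 and the lowest of Hspa1a.

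**Figure D2:**
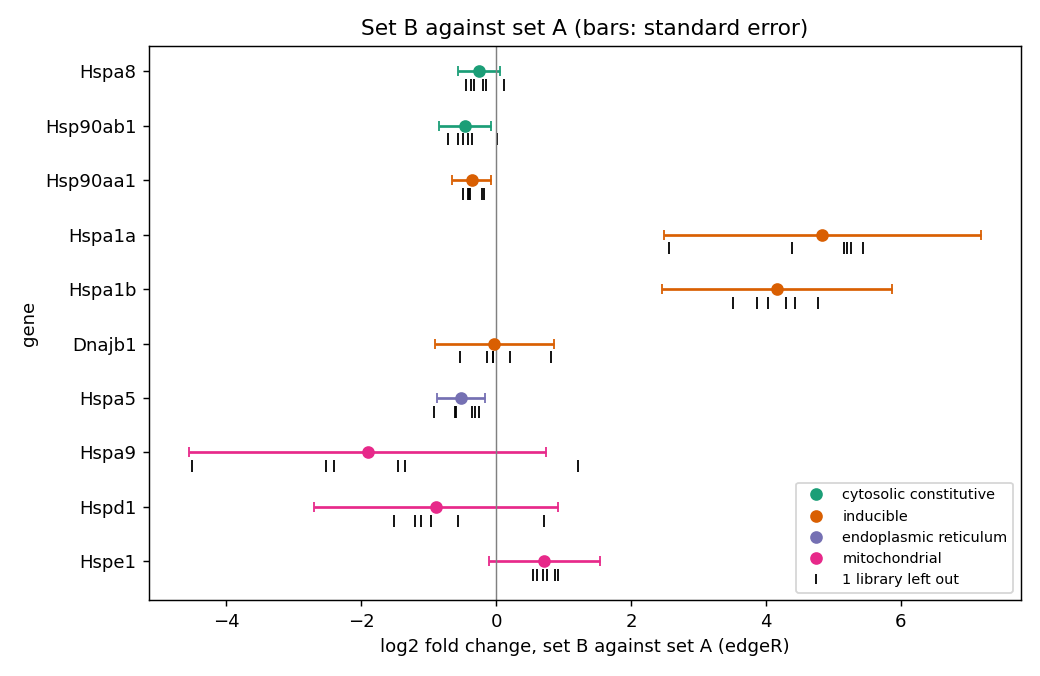
Log2 fold change of set B against set A for each member from edgeR, with bars of 1 standard error, points coloured by class, and black ticks for the values with 1 library left out. Hspa1a and Hspa1b lie at 4.84 and 4.16 with wide bars, and the ticks of Hspa8, Hsp90ab1, Dnajb1, Hspa9 and Hspd1 fall on both sides of 0.

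Hspa5 encodes BiP, the HSP70 of the endoplasmic reticulum, which holds its stress sensors inactive until unfolded protein draws it away. It was at 681, 516 and 540.0 CPM in A and at 644, 375 and 296 CPM in B. B2 and B3 were below all A libraries and B1 was among them. edgeR put the log2 difference at -0.52 (SE 0.35, adjusted p = 1.00), with -0.92 to -0.26 when 1 library was left out.

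The mitochondrial members did not move together. Hspe1, the chaperonin lid, was at 60.9, 44.7 and 56.2 CPM in A and at 115, 76.3 and 94.5 CPM in B. All 3 B libraries lay above all 3 A libraries, and Hspe1 was the 1 member of 10 with such a gap (10.2% of all genes tested had B above A without overlap, and 3.91% had A above B). The fitted log2 difference came to 0.71 (SE 0.82, adjusted p = 1.00 by edgeR), with 0.55 to 0.91 when 1 library was left out.

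Hspd1, the barrel subunit that shares the upstream heat shock element with Hspe1, was at 0.145, 239 and 70.8 CPM in A and at 25.4, 68.0 and 81.0 CPM in B. A1 had 8 counts and A2 12646, so the extremes of the gene both lay in set A. In the edgeR fit the value was -0.89 on the log2 scale (SE 1.81, adjusted p = 1.00), and it was 0.71 without A2. The ratio of Hspe1 to Hspd1 was 420 in A1 against 0.187 in A2 and 0.794 in A3, and 4.52, 1.12 and 1.17 in B, although their products work in 1 complex. A processed copy in the table, Hspd1-ps3, took 13, 525 and 581 counts from the A libraries and 8, 261 and 124 from the B libraries. Where the authors' counting placed reads shared with that copy was not tested.

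Hspa9, the mitochondrial HSP70 that pulls proteins through the inner membrane, was at 0.0726, 6.07 and 77.5 CPM in A and at 0.201, 2.25 and 19.3 CPM in B. A1 and B1 held 4 and 10 counts, and A3 was the highest library of the 6. In the edgeR fit the value was -1.91 on the log2 scale (SE 2.65, adjusted p = 1.00), and it was 1.21 without A3.

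Summed by class, the set means differed by less than the larger of the sets' SDs in all 4 classes. Constitutive cytosolic members summed to 2183 ± 783 CPM in A and 1922 ± 317 in B, inducible members to 469 ± 148 and 454 ± 82.5, Hspa5 to 579 ± 89.1 and 438 ± 182, and mitochondrial members to 185 ± 116 and 161 ± 29.9 (SD, n = 3 each). In the inducible sum Hsp90aa1 and Dnajb1 carried most counts (Hspa1a and Hspa1b held 67.5 of 511 CPM in B1). The sum thus does not show the high values of Hspa1a and Hspa1b in B1 and B3. No test was made on these sums.

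The spread between libraries followed the level. The 4 members with a mean of at least 300 CPM (Hspa8, Hsp90ab1, Hsp90aa1 and Hspa5) had coefficients of variation of 0.165 to 0.345, and the median over the 525 tested genes at that level was 0.295. None of their 24 values was under 1 CPM. Of the 24 values of the 4 members with a mean of 10 to 100 CPM (Hspa1a, Hspa9, Hspd1 and Hspe1) 6 were under 1 CPM, beside 28.0% of all values of tested genes at that level. Hspe1 was the steady one of these, with a coefficient of 0.351 where the lower quartile at that level was 0.778. Hspa9 (1.72) and Hspa1a (1.98) lay above the upper quartile of 1.34, and Hspd1 (1.04) near the median of 1.05.

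**Figure D3:**
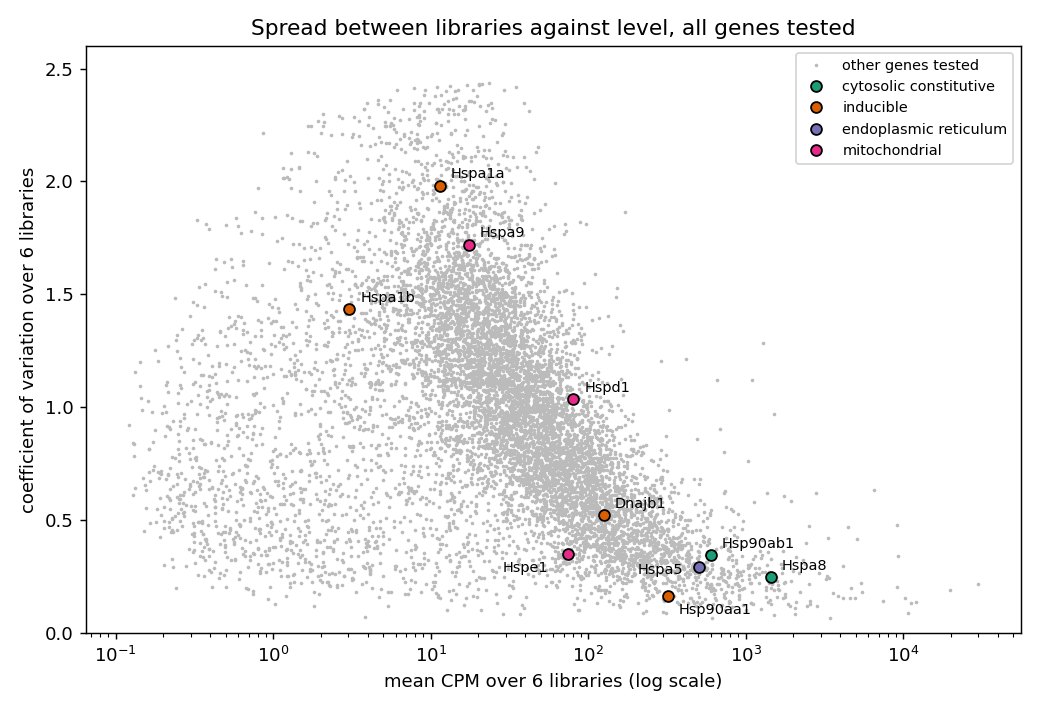
Coefficient of variation over the 6 libraries (vertical axis) against mean CPM (log axis) for the 9196 tested genes in grey, with the 10 chaperone members named and coloured by class. Members above 300 CPM lie at 0.165 to 0.345, while Hspa1a, Hspa9 and Hspd1 sit at 1.98, 1.72 and 1.04 inside the cloud of genes that are near 0 in some libraries.

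Genes whose profile over the 6 libraries came nearest to that of Hspa8 were sought among 1793 genes with a mean of at least 100 CPM. Likeness was the root mean square difference of log2(CPM + 1) after each gene was centred on its own mean. The nearest were Itgb2, the beta-2 integrin of leukocytes (0.10), Nsmce4a (0.11) and Ctss, a lysosomal protease (0.12), each highest in A1 as Hspa8 was. Among the members themselves Hsp90aa1 (0.19) and Hsp90ab1 (0.23) were the nearest to Hspa8. For Hspa1a, which lies under that level itself, the nearest member was Hspa1b (0.82). The nearest of the 1793 genes, Wfdc17, Higd1a and Brd7, differed from it by 1.16, 1.18 and 1.29, where Hspa1a itself varied by 1.95 around its mean. Each of the 3 was highest in B1 and lowest in A1, as Hspa1a was.

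Other genes of the folding machinery were read from lists grouped by role. Of their 72 genes tested (each gene counted once) 0 passed by edgeR, 3 had an unadjusted p under 0.05 (Cryab, Grpel2 and Timm44), DESeq2 called those 3 and limma-voom called 1 (Grpel2). Over all genes tested these shares were 0.0217%, 6.36%, 6.47% and 2.11%, in the same order. The genes named below are among the 4 with the smallest p in their list, apart from Ahsa1, Hsph1 and genes that the filter left out. Ahsa1 is named because its sets did not overlap, and Hsph1 because of how it passed the filter. Of 13 genes listed as other inducible genes, 9 were tested, and 8 had a fitted value above 0 (48% of all genes tested did). The median was 1.82 on the log2 scale. Cryab, Hspb1, Bag3, Chordc1 and Hsph1 needed the B libraries to pass the low-count filter. Hsph1 was at 0, 0 and 27.6 CPM in A and at 63.4, 19.7 and 15.0 CPM in B. The share above 0, the median and the count without overlap thus depend on which genes entered the test. Of genes left out, Hspa4l (18.7 CPM in A3) and Dnajb4 (19.9 CPM in A2) were highest in A. Hspb8 (7.42 CPM in B2) and Hspa1l (21.4 CPM in B2) were highest in B. Cryab, a small heat shock protein that holds unfolded proteins, was at 0.218, 0.170 and 0.325 CPM in A and at 39.8, 72.6 and 23.8 CPM in B. For Cryab the fit gave 7.46 on the log2 scale (SE 2.08, unadjusted p = 0.00943, adjusted p = 0.508 by edgeR), and DESeq2 called it (adjusted p = 2.05e-06). Of 8 small heat shock proteins and crystallins 2 were tested, both with values above 0 and both kept by the filter through the B libraries. Hspb1, the other one tested, was at 0 to 0.477 CPM in A and at 30.8, 0.541 and 0.391 CPM in B, which is B1 alone. Bag3, an HSP70 partner in the clearance of damaged protein, was at 0, 0 and 2.02 CPM in A and at 0.241, 23.9 and 29.5 CPM in B. Chordc1, an HSP90 partner, was at 0, 0.473 and 50.4 CPM in A and at 150.2, 167 and 86.7 CPM in B. The 3 genes of this list whose sets did not overlap, Cryab, Chordc1 and Ahsa1, were higher in B (3 of 9, beside 10.2% of all genes tested with B above A without overlap and 3.91% with A above B). B2, which had neither Hspa1a nor Hspa1b above 1 CPM, held the highest level of Cryab and of Chordc1. The inducible genes thus did not share their high libraries.

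Partners of HSP70 and HSP90 had fitted values on both sides of 0. Of 19 such co-chaperones 17 were tested, with 6 fitted values above 0 and 11 below and a median of -0.20. Nudc, an HSP90 partner, had the smallest p of them and was at 81.9, 80.4 and 251 CPM in A and at 46.6, 54.4 and 46.3 CPM in B (-1.55 on the log2 scale with SE 0.77, adjusted p = 1.00 by edgeR). Of 4 heat shock factors 3 were tested, 1 above 0 and 2 below, with a median of -0.48. Hsf1, the main one, was at 126, 99.1 and 2.601 CPM in A and at 0.161, 57.8 and 42.3 CPM in B. B1, the library with the most Hspa1a, had 8 counts of Hsf1, and a link between these levels was not tested. The 14 genes of the CCT chaperonin, which folds actin and tubulin, and of its partner prefoldin were all tested, with 6 values above 0 and 8 below and a median of -0.06. Cct5, a subunit of that chaperonin, was at 69.5, 259 and 192 CPM in A and at 286, 339 and 332 CPM in B, the smallest p of the list (0.81 on the log2 scale with SE 0.49, adjusted p = 1.00 by edgeR).

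Chaperones of the endoplasmic reticulum gave no common direction beside Hspa5. Of 18 genes 15 were tested, 8 above 0 and 7 below, with a median of 0.07. Pdia4, a disulfide isomerase, was at 0.0726, 0.113 and 6.59 CPM in A and at 72.9, 32.995 and 38.3 CPM in B (4.40 on the log2 scale with SE 2.40, adjusted p = 1.00 by edgeR). It needed the B libraries to pass the low-count filter. Of 8 regulators of the unfolded protein response 6 were tested. All 6 had edgeR values below 0 (52% of all genes tested did), with a median of -0.71. The filter left out Eif2ak3 and Ern1, which had higher means in B. Eif2ak3 was at 0, 0 and 0.0867 CPM in A and at 37.5, 18.4 and 0 CPM in B. Ern1 was at 20.6, 0 and 0.0867 CPM in A and at 0.0804, 33.7 and 0 CPM in B. By limma-voom 1 of the 6 tested, Trib3, was above 0, at 5.00. Among them Atf4, the factor whose translation rises in that response, had the smallest p and was at 185, 18.7 and 108 CPM in A and at 59.9, 58.3 and 62.9 CPM in B, with sets that overlapped (-0.92 on the log2 scale with SE 1.00, adjusted p = 1.00 by edgeR).

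Mitochondrial chaperones and proteases held the widest differences in both directions. Of 11 genes 8 were tested, 5 above 0 and 3 below, with a median of 0.33. Grpel2, a nucleotide exchange factor of Hspa9, showed 4, 0 and 0 counts in A and was at 31.3, 36.9 and 26.8 CPM in B. Its adjusted p was 0.508 by edgeR, 7.63e-06 by DESeq2 and 0.0309 by limma-voom. Grpel2 needed the B libraries to pass the low-count filter, so these calls depend on that entry. Timm44, which tethers Hspa9 to the import channel, was at 244, 94.8 and 57.0 CPM in A and at 5.65, 2.77 and 5.41 CPM in B (-4.99 on the log2 scale with SE 1.18, adjusted p = 0.508 by edgeR and 3.57e-06 by DESeq2). Its values in A lay above those in B without overlap, and limma-voom did not call it (adjusted p = 0.198). Hspa9 itself showed neither pattern, since its high libraries were A3 and B3.

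**Figure D4:**
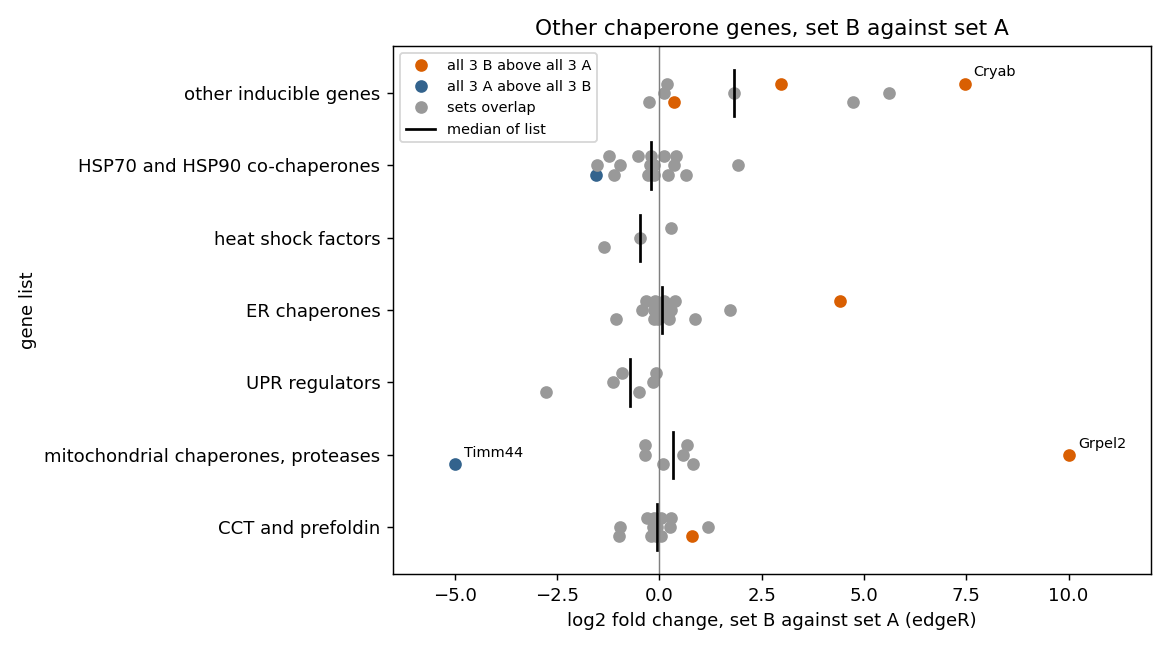
Log2 fold change of set B against set A (edgeR) for the tested genes of 7 further lists of the folding machinery, 1 point per gene, coloured by whether the sets overlap, with a black bar at each list's median. Medians lie between -0.71 and 0.33 except for the other inducible genes at 1.82, and the named points are Cryab, Grpel2 and Timm44, those with an unadjusted p under 0.05.

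Immediate early genes, which handling and sorting can also raise, were read beside the inducible members. All 12 were tested and 0 passed by edgeR (3 had an unadjusted p under 0.05, DESeq2 called 2 and limma-voom 0, beside 0.0217%, 6.36%, 6.47% and 2.11% of all genes), with 7 above 0, 5 below and a median of 0.17. Dusp1, a phosphatase of stress kinases, was at 692, 804 and 1107 CPM in A and at 1615, 1842 and 1389.9 CPM in B, without overlap (0.81 on the log2 scale with SE 0.19, unadjusted p = 0.00487, adjusted p = 0.508 by edgeR, and 0.0263 by DESeq2). Fosb was at 0.0726, 0.0757 and 0.260 CPM in A and at 0.261, 2.93 and 6.63 CPM in B (adjusted p = 0.558 by edgeR and 0.00771 by DESeq2). Its fitted value was 4.53 on the log2 scale (SE 1.56), on 12 counts in A3 and 13 in B1. Fosb needed the B libraries to pass the low-count filter, so its call by DESeq2 depends on that entry. Zfp36, which speeds the decay of cytokine transcripts, was at 741, 837 and 626 CPM in A and at 408, 572 and 521 CPM in B (-0.66 on the log2 scale with SE 0.24, adjusted p = 0.617 by edgeR). Without overlap, 3 of the 12 were higher in B and 1 in A (10.2% and 3.91% of all genes tested). Dusp1 was thus highest in B2, where Hspa1a was at 0.846 CPM. The part of handling in any of these values was not tested.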

How the data were processed

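Smart-seq2 libraries of sorted cells were sequenced as paired reads of 150 bases, per the labels' protocols. The authors deposited raw counts per Ensembl gene, 1 column per library and not normalized. Per the submitters' processing notes, HISAT2 2.2.1, cutadapt 1.9 and DESeq2 were used, in roles the notes leave out. Counts were made with a program, build, annotation and strand setting not given in the sources used here. Ensembl identifiers were paired with symbols by table (55141 of 55401 matched). Smart-seq2 reads carry no molecular identifiers, though the library descriptions name another platform. Low counts were more often 4 (5211 values) than 3 (819) or 5 (660), so intervals cover counting error at most. A floor of 3 counts was 0.0469 to 0.0650 CPM.

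CPM was the count divided by the library's total, times 1000000. The test was edgeR 4.0.16 (R 4.3.3) over all 6 libraries with no covariate: the filter filterByExpr on the sets, TMM factors, robust glmQLFit and glmQLFTest, Benjamini-Hochberg adjustment over 9196 genes and a threshold of 0.05. A standard error is the absolute log2 difference over the square root of F. DESeq2 1.42.0 and limma-voom (limma 3.58.1) with quality weights were run on the same filtered genes. Alternatives were a stricter filter (a mean of 10 CPM, and 10 counts in all libraries of 1 set), no filter, scaling by RLE or by library size alone, a replicate block, counts divided by 4, a threshold of 0.01 and each library left out. The edgeR step was tested on simulated counts.

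The members and lists were chosen with earlier results of these data known. Named were all 10 members, up to 4 genes of each further list with the smallest p, and the 3 genes nearest to Hspa8 and to Hspa1a. Ahsa1, Hsph1, the copy of Hspd1 and the listed genes left out by the filter were named after their values were seen. Promoters came from RefSeq (GRCm38.p6), exon lengths and transcripts from GENCODE M21, and their match to the authors' annotation is not known.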

Additional observations from a re-analysis of the deposited data

How the results depend on the processing

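By edgeR 2 genes of the whole table were called, 0 at an adjusted p of 0.01 and 0 to 1 with a library left out, while DESeq2 called 595 and limma-voom 194. Members called were 0 under every setting run but DESeq2, which called 1 (Hspa1b). Hspa1b was not tested under the stricter filter or with counts divided by 4, which left 9 members. Of 138 member values under other settings 126 kept direction and side of the threshold, 11 changed sign and 1 passed it. Dnajb1 became 0.14 with library size alone, and limma-voom gave 0.67 for Dnajb1 and 1.45 for Hspd1. With 1 library left out the log2 difference ran from -0.44 to 0.12 for Hspa8, -0.72 to 0.016 for Hsp90ab1, -0.54 to 0.81 for Dnajb1, -4.51 to 1.21 for Hspa9 and -1.51 to 0.71 for Hspd1. The cause of these reversals was not tested. The median over all genes moved from -0.06 to -0.16 with RLE scaling, to 0.87 with limma-voom and to 0.48 with the block. The members' own median moved from -0.31 to 0.17 with the block.

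The labels do not say whether the replicate numbers pair the libraries. Deviations from the set means had correlations of 0.0125, 0.00266 and -0.0289 between same-numbered libraries, over 1798 genes. With so few libraries per set this check cannot exclude a pairing. With the replicate block 0 genes were called, and the log2 difference became 0.53 for Dnajb1 and 0.89 for Hspd1. A member under 1 CPM in a library rested on few counts there, which limits the fold changes of Hspa1a, Hspa1b, Hspa9 and Hspd1.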
